A study of Mus musculus with 4 samples.

Results

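The complement genes measured here were 29 mouse genes that encode the recognition molecules, proteases, terminal components, regulators and receptors of the complement system. They came from a list of 32 symbols, and a gene entered when a probe set of the array named it alone. C3, C7 and Cfd had no such probe set and were not analysed here. All 29 genes passed the filter on low values, among 16758 genes tested in all. Liver RNA was compared on Affymetrix GeneChip Mouse Genome 430 2.0 arrays, where a probe set is a group of short oligonucleotides that reads 1 transcript region. Samples were whole livers of C57BL/6 mice at 4 weeks of age, 2 labelled wild type (Control) and 2 labelled Cnot3KO, with 1 mouse per array. In Cnot3KO mice, Cre recombinase driven by the albumin promoter, which is active in the hepatocyte lineage, deleted Cnot3, a subunit of the CCR4-NOT complex that shortens mRNA poly(A) tails. The methods allow control mice that carry the floxed allele or the Alb-Cre transgene without full deletion, and which kind each Control array used is not given in the sources used here.

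Complement is a cascade of plasma proteins that marks microbes and damaged cells. The classical pathway starts with C1q, the lectin pathway with mannose-binding lectins or ficolins, and the alternative pathway with factor B and properdin, and all converge on convertases that cleave C3 and then C5. The terminal components then assemble into a pore, the membrane attack complex. Hepatocytes are the main source of most of these proteins in plasma, whereas C1q is made chiefly by macrophages. Soluble and membrane-bound regulators keep the cascade off host cells.

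The complement genes moved in opposite directions. C8a, which encodes the alpha chain of C8, fell 8.16-fold, and C8b fell 4.09-fold. The lectin gene Mbl1 fell 2.71-fold and C9 fell 2.47-fold, whereas the 3 genes of C1q rose between 2.12- and 2.42-fold and C3ar1, the receptor gene for C3a, rose 2.65-fold. By limma with Benjamini-Hochberg adjustment over all 38405 kept probe sets, 13 of the 29 genes passed an adjusted p of 0.05. Of these, 5 were higher in Cnot3KO livers, which is 17.2% of the complement genes, beside 12.2% of all genes tested. The other 8 were lower, or 27.6%, beside 4.64% of all genes tested. Among the 8 is Masp1, whose call belonged to 1 of 5 probe sets. The shares of all genes were not matched for intensity, and the complement genes were chosen with earlier results of these data known. The median difference of the 29 genes was -0.52 on the log2 scale, and that of all genes tested was 0.002. Among the 16 genes that did not pass, 12 had groups whose arrays did not overlap, 7 of them lower in Cnot3KO livers and 5 higher. How many of all genes tested had such groups was not counted, so the 12 are not read as a result about complement genes. Differences below are Cnot3KO minus Control in log2 units of array intensity, given ± SE with 2 arrays per group. Intensities of different probe sets are not on 1 scale, so no gene's level is ranked against another's. Sums over a list and differences between genes on 1 array are compared only between genotypes.

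Arrays separated by genotype. Pearson correlations over kept probe sets were 0.981 between the Control arrays and 0.989 between the Cnot3KO arrays, and between 0.937 and 0.948 across genotypes. Cnot3 itself read 5.99 and 6.04 in Control livers against 5.15 and 5.30 in Cnot3KO livers, a difference of -0.79 ± 0.16 (adjusted p = 0.0372). A second Cnot3 probe set gave -0.40 (adjusted p = 0.218), and where either lies relative to the deleted exons is not known here. Without single arrays the first probe set had adjusted p from 0.0885 (without Control replicate 2) to 0.211 (without Cnot3KO replicate 1). Its call was also lost with the replicate number as a block (0.0517) and with a prior that follows intensity (0.0551). The 7 measured hepatocyte markers had a median difference of -0.02 with none called, and Alb, which encodes albumin, differed by -0.02 ± 0.16. Their differences ran from -0.61 (Tat) to 0.40 (Apoa1), with 5 negative and 2 positive. Markers of macrophages, stellate cells and cholangiocytes were mostly higher, with 9 of 18, 7 of 10 and 4 of 6 genes called higher. The macrophage marker Cd163 was called lower. For all genes tested, 12.2% were called higher and 4.64% lower. Erythroid markers were lower, with 3 of 4 called, a median difference of -1.80 and summed linear intensities of 419 and 430 in Control livers against 62.1 and 110 in Cnot3KO livers. The part of these cell types in the complement values was not tested, beyond the macrophage values given beside C1q. In whole tissue, fewer cells of a type and less RNA per cell cannot be told apart.

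**Figure D1:**
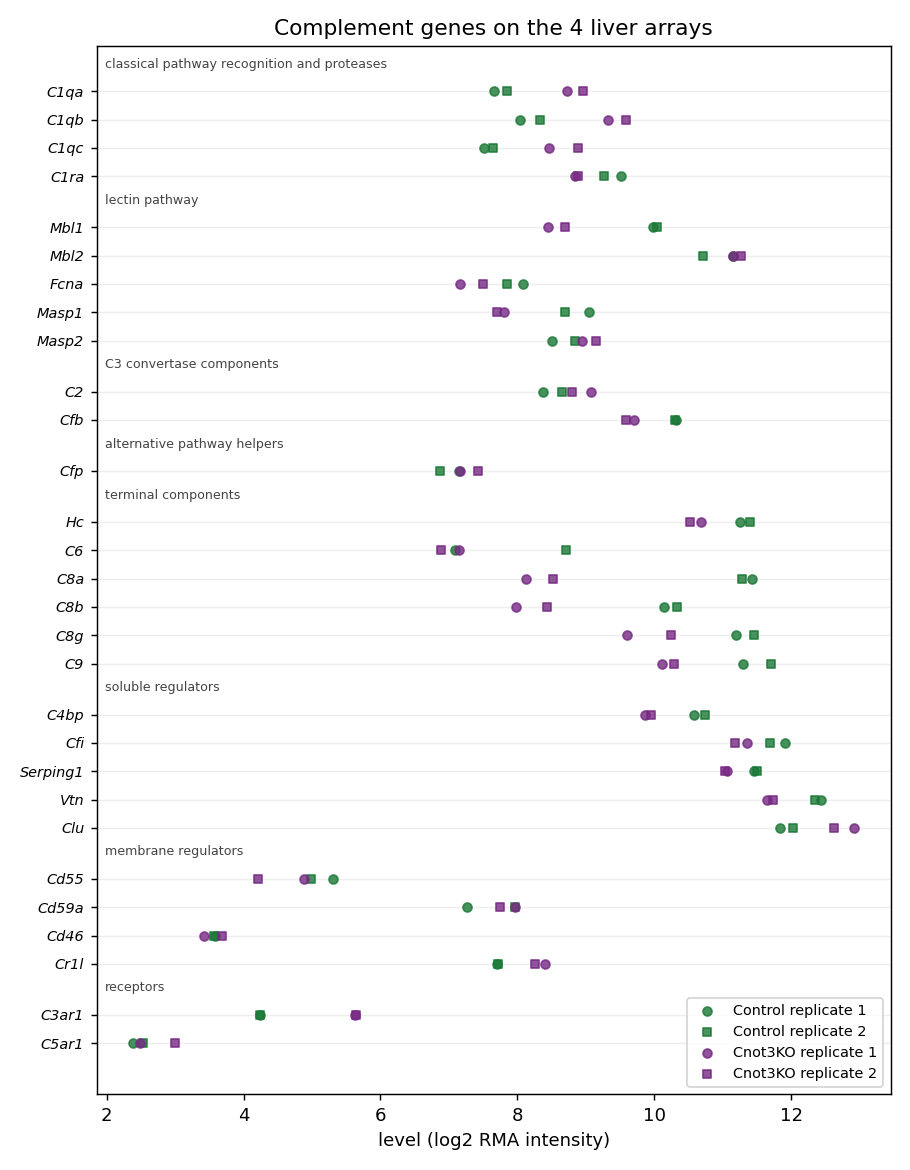
Log2 array intensity of each of the 29 complement genes on the 2 Control and 2 Cnot3KO arrays, 1 point per array, in blocks by role. C8a read 11.42 and 11.29 in Control against 8.13 and 8.52 in Cnot3KO livers, while the points of C1qa, C1qb, C1qc and C3ar1 lie higher in Cnot3KO.

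The terminal components included the largest differences among the complement genes. All 6 measured genes had negative differences, with a median of -1.35, and 4 of them passed the test, beside 4.64% of all genes tested called lower. C8 is made of an alpha, a beta and a gamma chain, encoded by C8a, C8b and C8g. C8a read 11.42 and 11.29 in Control livers and 8.13 and 8.52 in Cnot3KO livers, a difference of -3.03 ± 0.20 (adjusted p = 0.00422). C8b, the chain that joins C8 to the growing complex, read 10.14 and 10.33 against 7.97 and 8.43, a difference of -2.03 ± 0.22 (adjusted p = 0.00861). C8g, whose product is a lipocalin bound to the alpha chain, read 11.19 and 11.45 against 9.60 and 10.25, a difference of -1.40 ± 0.27 (adjusted p = 0.0295). The groups were far apart for each chain, but the chains did not fall to the same extent. Within each array, the difference between C8a and C8g was lower in Cnot3KO livers by 1.63 log2 units, and that between C8a and C8b by 1.00, with no overlap between groups, and neither contrast was tested. C9, which polymerises into the wall of the pore, read 11.30 and 11.70 in Control livers against 10.11 and 10.29 in Cnot3KO livers. Its difference was -1.30 ± 0.21 (adjusted p = 0.0188), again without overlap.

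Hc, the mouse gene for C5, and C6 make the early part of the same complex. Hc read 11.25 and 11.40 in Control livers and 10.69 and 10.52 in Cnot3KO livers, so the groups did not overlap. Its difference of -0.72 ± 0.17 had a 95% interval of -1.15 to -0.29 and just missed the threshold (adjusted p = 0.0509). C6 read 7.09 and 8.71 in Control livers against 7.14 and 6.88 in Cnot3KO livers. Its difference was -0.89 ± 0.52 (95% interval -2.21 to 0.43, adjusted p = 0.306), and the groups overlapped because the Control arrays lay 1.62 apart, the widest gap of any complement gene. Without Control replicate 1 the C6 difference was -1.70 (adjusted p = 0.0441), and without Control replicate 2 it was -0.08. The median gap between replicates over the 29 genes was 0.193 in Control and 0.228 in Cnot3KO livers.

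Summed over the 6 genes on the linear scale, terminal component intensity was 11300 and 13000 in Control livers and 4200 and 4760 in Cnot3KO livers. C8a and C8b passed the threshold without any 1 array, where the lone array of a group was assumed to vary like the other group. C8g lost it without Control replicate 1 (adjusted p = 0.088), Control replicate 2 (0.0996) or Cnot3KO replicate 1 (0.098), with differences of -1.53, -1.27 and -1.07. C9 lost it without Control replicate 2 (adjusted p = 0.0515), Cnot3KO replicate 1 (0.0862) or Cnot3KO replicate 2 (0.0519), with differences of -1.10, -1.22 and -1.39.

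Promoter sequence was looked at because C8a and C8b had the largest falls, though the other complement genes did not all fall with them. Mbl2 differed by 0.28, C2 by 0.42 and Clu, called higher, by 0.84. RefSeq windows of the 250 bases before the transcription start (GRCm38.p6) existed for 22 of the 29 genes, in 23 windows. Both strands were searched, and matches of different motifs were allowed to overlap. The half-site of HNF1, a hepatocyte transcription factor, was taken as GTTAAT and occurred in 7 of the 23 windows, those of C4bp, Hc, C8b, C8a, C1ra, Vtn and Cfp. Of all 32851 windows, 6.43% held it. Hc, C1ra and Cfp held it but were not called, whereas Mbl1, Masp1, C8g and C9 were called lower and are not among the 7. C9 had a window, and whether Mbl1, Masp1 and C8g had one is not given here. The windows of C8a and C8b are shown because they held this match and belong to the genes with the largest fall, with the matched letters in capitals. The match is GTTAAT in C8a, at -107 to -102, and its reverse complement in C8b, at -206 to -201, counted from the start site.
C8a, chr4:104876399-104876648, minus strand: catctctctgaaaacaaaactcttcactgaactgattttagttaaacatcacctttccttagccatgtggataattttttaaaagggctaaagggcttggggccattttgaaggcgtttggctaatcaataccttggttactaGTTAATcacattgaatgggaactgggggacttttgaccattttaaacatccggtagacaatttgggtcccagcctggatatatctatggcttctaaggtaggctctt
C8b, chr4:104766067-104766316, plus strand: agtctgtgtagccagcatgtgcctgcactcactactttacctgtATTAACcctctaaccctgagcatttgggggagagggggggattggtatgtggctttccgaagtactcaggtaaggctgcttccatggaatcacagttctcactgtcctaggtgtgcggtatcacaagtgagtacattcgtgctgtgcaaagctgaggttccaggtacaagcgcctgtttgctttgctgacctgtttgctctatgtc
Of the other motifs, the HNF4 letters AAAGTCCA occurred in 0 of the 23 windows (1.01% of all windows) and the C/EBP letters TTGCNNAA in 1, that of C9 (9.56%). The STAT letters TTCNNNGAA occurred in 2, those of C8a and Masp2 (7.02%). The interferon response core GAAANNGAA occurred in 2, those of Cd59a and C5ar1 (7.13%). A match is a description of the letters and not a sign of binding. C9 is shown with its C/EBP match in capitals, as the window of another terminal component that fell.
C9, chr15:6445096-6445345, plus strand: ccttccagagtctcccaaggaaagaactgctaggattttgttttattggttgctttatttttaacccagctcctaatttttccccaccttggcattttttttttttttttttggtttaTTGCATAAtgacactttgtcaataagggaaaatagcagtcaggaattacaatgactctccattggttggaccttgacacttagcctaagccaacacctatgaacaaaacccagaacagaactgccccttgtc

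The lectin pathway split between its members. Mbl1 and Mbl2 encode the 2 mouse mannose-binding lectins, which recognise sugars on microbial surfaces. Mbl1 read 9.98 and 10.04 in Control livers and 8.45 and 8.69 in Cnot3KO livers, a difference of -1.44 ± 0.17 (adjusted p = 0.0106). Mbl2 read 11.14 and 10.71 against 11.15 and 11.26, a difference of 0.28 ± 0.21 (95% interval -0.24 to 0.81, adjusted p = 0.4). The Mbl1 groups lay well apart, whereas the lower Cnot3KO array of Mbl2 was barely above the higher Control array. Within each array, Mbl1 relative to Mbl2 was lower in Cnot3KO livers by 1.72 log2 units, with no overlap, and this contrast was not tested. Fcna, the gene of ficolin A, read 8.08 and 7.85 in Control livers against 7.16 and 7.49 in Cnot3KO livers. Its difference was -0.64 ± 0.20 (95% interval -1.13 to -0.14), without overlap and short of the threshold (adjusted p = 0.0958). The Mbl1 call was lost on leaving out Cnot3KO replicate 1 (difference -1.32, adjusted p = 0.051) and held without any other array.

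Masp1 and Masp2 encode the serine proteases that the lectins activate, and here the probe sets of each gene parted. The brightest Masp1 probe set read 9.05 and 8.69 in Control livers and 7.80 and 7.69 in Cnot3KO livers, a difference of -1.12 ± 0.19 (adjusted p = 0.0234). The other 4 Masp1 probe sets gave 0.28, 0.31, 0.14 and 0.22, none of them called, with adjusted p from 0.276 to 0.586. Averaged over its probe sets, Masp1 differed by -0.03 (adjusted p = 0.897), so the call belonged to 1 of 5 probe sets. Relative to 2 of the other probe sets on the same array, that 1 was lower in Cnot3KO livers by 1.43 and 1.40. For Masp2 the order was turned. Its brighter probe set read 8.50 and 8.84 in Control livers against 8.94 and 9.15 in Cnot3KO livers (0.38 ± 0.20, 95% interval -0.12 to 0.87, adjusted p = 0.259). Its dimmer probe set read 8.10 and 7.96 against 7.20 and 7.05 and was called lower (-0.90 ± 0.17, adjusted p = 0.0286). Both genes are known to give more than 1 transcript form, and which form each probe set reads was not determined. The Masp1 call was also lost without Control replicate 1 (difference -0.94, adjusted p = 0.0734), Cnot3KO replicate 1 (-1.17, 0.088) or Cnot3KO replicate 2 (-1.07, 0.097).

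**Figure D2:**
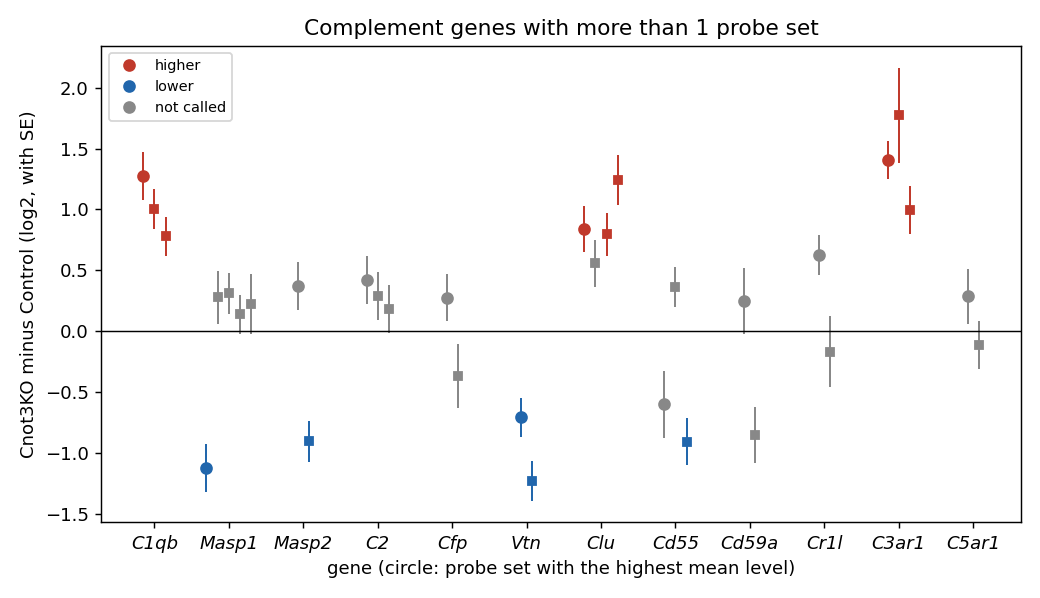
Difference in log2 intensity, Cnot3KO minus Control, for every kept probe set of the complement genes that had more than 1, with bars of 1 SE. Probe sets of C1qb, C3ar1, Clu and Vtn lie on 1 side of 0, whereas 1 of the 5 Masp1 probe sets lies at -1.12 and the other 4 lie above 0.

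In all, 50 of the 51 probe sets that name a complement gene were kept, and 12 of the 29 genes had more than 1. Of these probe sets, 11 were called higher and 11 lower, where 8.48% of all kept probe sets were called higher and 4.78% lower. The plot of single probe sets shows where choosing the brightest decided the sign.

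The classical pathway moved the other way from the terminal components. C1qa, C1qb and C1qc encode the 3 chains of C1q, which binds antibody and dying cells. C1qa read 7.66 and 7.85 in Control livers and 8.73 and 8.95 in Cnot3KO livers, a difference of 1.08 ± 0.18 (adjusted p = 0.0216). C1qb read 8.04 and 8.33 against 9.33 and 9.59, a difference of 1.27 ± 0.20 (adjusted p = 0.0178). C1qc read 7.51 and 7.65 against 8.45 and 8.88, a difference of 1.09 ± 0.21 (adjusted p = 0.0298). The 3 chains rose together and by similar amounts, and no Control array reached a Cnot3KO array. The other 2 C1qb probe sets were called higher too, by 1.01 (adjusted p = 0.0211) and 0.78 (adjusted p = 0.0354). C1ra encodes a protease that C1q activates, and it read 9.51 and 9.27 in Control livers against 8.84 and 8.89 in Cnot3KO livers. Its difference was -0.52 ± 0.17 (95% interval -0.96 to -0.09), opposite in sign to the C1q chains and not called (adjusted p = 0.112).

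Macrophage markers moved with the C1q chains. Of 18 macrophage and Kupffer cell markers, 9 were called higher (Cd68, Ms4a7, Gpnmb, Cd5l, Mpeg1, Tyrobp, Fcer1g, Aif1 and Trem2) and 1 lower, the scavenger receptor gene Cd163 at -3.87. For all genes tested the shares were 12.2% higher and 4.64% lower. Timd4, another of the 18 markers, also had a negative difference (-0.13, adjusted p = 0.722). The summed linear intensity of the 18 markers was 3050 and 2800 in Control and 5430 and 5840 in Cnot3KO livers. Adgre1, which encodes a macrophage surface receptor, differed by 0.80 (adjusted p = 0.19), and Clec4f, a Kupffer cell lectin, by 0.60 (adjusted p = 0.091). The summed intensity of the C1q chains was 648 and 752 in Control against 1420 and 1740 in Cnot3KO livers. Taking the mean of the marker genes from the mean of the C1q chains on each array gave 1.47 and 1.85 in Control and 1.78 and 2.04 in Cnot3KO livers. This relative value overlapped between groups, with a difference of 0.26, against a difference of 0.89 in the marker mean itself. Cd163, which read 1.90 and 1.63 in Cnot3KO livers, is 1 of the 18 markers and lowers their mean there. The relative value without Cd163 was not computed, so the 0.26 is not read as a rise of C1q beyond the markers. The part of macrophage number in the C1q result was not tested.

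On leaving out single arrays, the differences of the C1q chains stayed between 0.88 and 1.42. The calls of C1qa and C1qc were lost without any 1 array, with adjusted p from 0.0501 to 0.104 for C1qa and from 0.0543 to 0.127 for C1qc. C1qb kept its call only without Control replicate 2, and otherwise had adjusted p from 0.0516 (without Cnot3KO replicate 1) to 0.0744 (without Cnot3KO replicate 2). The C1qb and C1qc windows are shown because they held the letters GAGGAA of PU.1, a myeloid transcription factor, with each match in capitals. These letters were in 4 of the 23 windows, also those of Fcna and Cd59a, and in 23.3% of all windows.
C1qb, chr4:136886201-136886450, minus strand: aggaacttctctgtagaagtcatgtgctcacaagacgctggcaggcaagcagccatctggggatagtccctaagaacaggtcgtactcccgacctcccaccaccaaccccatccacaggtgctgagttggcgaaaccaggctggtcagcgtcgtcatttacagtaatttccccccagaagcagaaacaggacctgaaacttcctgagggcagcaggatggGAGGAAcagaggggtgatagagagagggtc
C1qc, chr4:136892915-136893164, minus strand: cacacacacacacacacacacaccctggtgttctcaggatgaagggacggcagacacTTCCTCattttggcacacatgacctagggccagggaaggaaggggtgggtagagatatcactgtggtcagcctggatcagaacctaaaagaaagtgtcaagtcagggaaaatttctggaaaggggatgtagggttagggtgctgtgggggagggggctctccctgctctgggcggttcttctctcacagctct

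The receptor genes for the released peptides C3a and C5a are known to be expressed mainly by myeloid cells. C3ar1 read 4.24 and 4.24 in Control livers and 5.63 and 5.65 in Cnot3KO livers, a difference of 1.40 ± 0.16 (adjusted p = 0.00923). Replicates lay closer together than for any other of the 29 genes. The other 2 C3ar1 probe sets were called higher as well, at 1.77 ± 0.39 (adjusted p = 0.0434) and 0.99 ± 0.20 (adjusted p = 0.0339). Relative to the mean of the macrophage markers on the same array, C3ar1 was higher in Cnot3KO livers by 0.51, without overlap between groups, and this was not tested further. That mean includes Cd163, at -3.87, which lowers it in Cnot3KO livers. The C3ar1 value relative to the markers without Cd163 was not computed, so the 0.51 is not read as a rise beyond the markers. C5ar1 read 2.38 and 2.53 against 2.49 and 2.999, with overlapping groups and a difference of 0.29 ± 0.22 (95% interval -0.28 to 0.85, adjusted p = 0.428). C3ar1 passed the threshold without any 1 array, with adjusted p from 0.0359 to 0.0445.

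**Figure D3:**
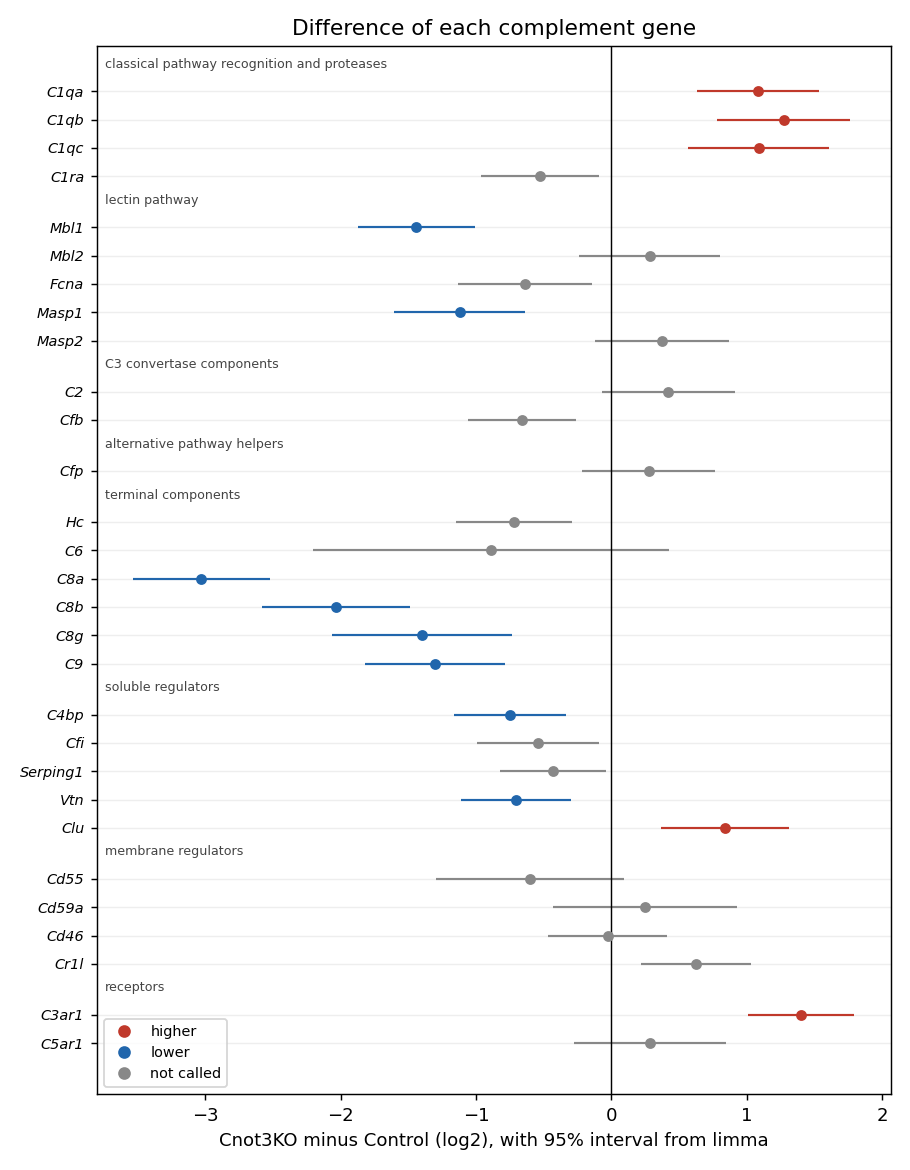
Difference in log2 intensity, Cnot3KO minus Control, of the 29 complement genes with 95% intervals from limma, in blocks by role and with called genes marked. All 6 terminal components lie below 0, from -3.03 for C8a to -0.72 for Hc, and the 3 C1q chains and C3ar1 lie above 1.

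Among genes of the convertases and the alternative pathway, none was called. C2 supplies the protease of the classical and lectin convertase, and read 8.38 and 8.65 in Control livers against 9.07 and 8.80 in Cnot3KO livers. Its difference was 0.42 ± 0.19 (95% interval -0.07 to 0.91, adjusted p = 0.21). Cfb, the corresponding protease of the alternative pathway, read 10.32 and 10.30 against 9.70 and 9.59, a difference of -0.66 ± 0.16 (95% interval -1.06 to -0.26). Its groups did not overlap and it came just short of the threshold (adjusted p = 0.0541). Cfp, properdin, which stabilises the alternative convertase and comes from leukocytes, read 7.15 and 6.87 against 7.15 and 7.42. Its difference was 0.28 ± 0.20 (95% interval -0.21 to 0.77, adjusted p = 0.384), and a second probe set gave -0.36 (adjusted p = 0.395).

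Soluble regulators were mixed, with 1 gene called higher and 2 lower of 5, beside 12.2% and 4.64% of all genes tested. C4bp encodes a cofactor that takes C4b out of action, and it read 10.58 and 10.73 in Control livers against 9.86 and 9.95 in Cnot3KO livers (-0.75 ± 0.16, adjusted p = 0.0426). Vtn encodes vitronectin, which binds the nascent terminal complex, and it read 12.43 and 12.35 against 11.64 and 11.73 (-0.70 ± 0.16, adjusted p = 0.0467). A second Vtn probe set gave -1.22 ± 0.16 (adjusted p = 0.0134). Clu encodes clusterin, which binds the same complex, and moved oppositely. It read 11.84 and 12.02 in Control livers against 12.92 and 12.62 in Cnot3KO livers, a difference of 0.84 ± 0.19 (adjusted p = 0.0457). Of the other 3 Clu probe sets, 2 were called higher, at 0.80 (adjusted p = 0.0435) and 1.24 (adjusted p = 0.0214), and 1 gave 0.56 (adjusted p = 0.122). That uncalled probe set was the brightest in Control livers (mean 11.98, against 11.93 for the chosen one). The choice of probe set for Clu thus rested on its Cnot3KO values. Cfi, factor I, which cleaves C3b and C4b, read 11.91 and 11.68 against 11.35 and 11.17 (-0.54 ± 0.18, 95% interval -0.99 to -0.09, adjusted p = 0.113). Serping1, the C1 inhibitor, read 11.45 and 11.50 against 11.06 and 11.03 (-0.43 ± 0.16, 95% interval -0.82 to -0.04, adjusted p = 0.136). Neither of these was called, though neither had overlapping groups.

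The calls of C4bp, Vtn and Clu lay close to the threshold. On leaving out each array in turn, adjusted p ran from 0.0876 (without Control replicate 1) to 0.22 (without Cnot3KO replicate 1) for C4bp, from 0.0862 (without Control replicate 2) to 0.246 (without Cnot3KO replicate 1) for Vtn and from 0.0822 (without Control replicate 2) to 0.235 (without Cnot3KO replicate 1) for Clu, with the sign kept throughout. The C4bp and Vtn windows are shown because both genes fell and both windows held the HNF1 half-site, in capitals.
C4bp, chr1:130661619-130661868, minus strand: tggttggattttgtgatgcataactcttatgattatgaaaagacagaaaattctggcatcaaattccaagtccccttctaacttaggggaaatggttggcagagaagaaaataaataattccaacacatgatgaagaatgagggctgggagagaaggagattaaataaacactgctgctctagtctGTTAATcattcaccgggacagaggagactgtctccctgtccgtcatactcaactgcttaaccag
Vtn, chr11:78498870-78499119, plus strand: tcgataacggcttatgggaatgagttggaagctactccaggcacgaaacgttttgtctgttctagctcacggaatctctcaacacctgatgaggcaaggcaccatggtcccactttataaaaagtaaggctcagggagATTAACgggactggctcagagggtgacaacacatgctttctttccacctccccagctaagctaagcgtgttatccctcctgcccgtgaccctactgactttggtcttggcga

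None of the 4 membrane regulators was called. Cd55 encodes decay-accelerating factor, which dismantles convertases, and it read 5.30 and 4.99 in Control livers against 4.89 and 4.21 in Cnot3KO livers (-0.60 ± 0.28, 95% interval -1.29 to 0.10, adjusted p = 0.211). Its other probe sets gave 0.37 (adjusted p = 0.204) and a called -0.90 (adjusted p = 0.0397), so they parted in sign. Cd59a encodes an inhibitor of the membrane attack complex, and it read 7.26 and 7.96 against 7.97 and 7.75, with overlap (0.25 ± 0.27, 95% interval -0.43 to 0.93, adjusted p = 0.573). A second Cd59a probe set gave -0.85 ± 0.23 (adjusted p = 0.0713) and was the brighter in Control livers (mean 7.82 against 7.61). Cr1l encodes Crry, the broad rodent convertase inhibitor, and it read 7.69 and 7.71 against 8.40 and 8.26. Its difference of 0.63 ± 0.16 (95% interval 0.22 to 1.03) showed no overlap and fell short of the threshold (adjusted p = 0.063). Cd46, a cofactor for factor I, read 3.59 and 3.57 in Control livers against 3.42 and 3.68 in Cnot3KO livers, with overlap (-0.03, 95% interval -0.47 to 0.41, adjusted p = 0.933).

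Beyond these 29 genes, 20 of 32 further complement genes were measured, with 4 called higher, 4 lower and a median of -0.12. That is 20% in each direction, beside 12.2% of all genes tested called higher and 4.64% lower. Cfhr2, a factor H-related gene of the liver, read 9.32 and 9.29 in Control livers against 7.37 and 7.55 in Cnot3KO livers (-1.85 ± 0.17, adjusted p = 0.0063). Susd4, whose product restrains C1 and the convertase, read 4.84 and 5.58 against 3.21 and 3.50 (-1.86 ± 0.29, adjusted p = 0.018). Cr2, the receptor for C3d, read 2.25 and 2.03 against 4.19 and 3.21 (1.56 ± 0.34, adjusted p = 0.0435), and Itgax, a chain of complement receptor 4, read 3.71 and 3.39 against 5.03 and 4.94 (1.43 ± 0.19, adjusted p = 0.0125). All 4 had separate groups. Cfhr3 (-1.22 ± 0.24) and Cpn2 (-1.04 ± 0.19) were the other called falls, and Cd93 (1.15 ± 0.25) and Itgb2 (1.05 ± 0.19) the other called rises. Further Cd93 probe sets gave 1.14 (adjusted p = 0.0694), 0.11 and -0.28, none of them called. Without Cnot3KO replicate 1, Susd4 (adjusted p = 0.0614), Cr2 (0.0954) and Itgax (0.055) lost their calls, and Cr2 lost it also without Control replicate 1 (0.125) or Control replicate 2 (0.137).

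Transcription factors and cytokine pathway genes known to act on complement genes gave 2 called higher and 2 lower of 20 measured, with a median of 0.36. That is 10% in each direction, beside 12.2% of all genes tested called higher and 4.64% lower. Irf1, an interferon-induced transcription factor, read 6.94 and 6.83 in Control livers against 8.16 and 8.17 in Cnot3KO livers (1.28 ± 0.16, adjusted p = 0.0115), and Ifngr1, a chain of the interferon gamma receptor, differed by 0.92 ± 0.19 (adjusted p = 0.0351). Il6ra, the interleukin-6 receptor, read 8.38 and 7.47 against 6.55 and 5.69 (-1.81 ± 0.41, adjusted p = 0.0472). Cebpb, a transcription factor of the acute phase response, read 10.45 and 10.58 against 9.78 and 9.47 (-0.89 ± 0.19, adjusted p = 0.0378). Hnf4a, a core hepatocyte transcription factor, was not called (-0.25, adjusted p = 0.372), nor was Stat3 by its brightest probe set (0.01, adjusted p = 0.981). Another Stat3 probe set read 5.36 and 4.95 in Control livers against 3.79 and 4.34 in Cnot3KO livers and came just short of the threshold (-1.09 ± 0.26, adjusted p = 0.0531). Leaving out any 1 array ended the calls of Ifngr1 and Cebpb, with adjusted p up to 0.171 and 0.185 (without Cnot3KO replicates 1 and 2). Irf1 lost its call without Cnot3KO replicate 1 (adjusted p = 0.0562), and Il6ra kept its call only without that array, with adjusted p up to 0.145 (without Control replicate 1).

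**Figure D4:**
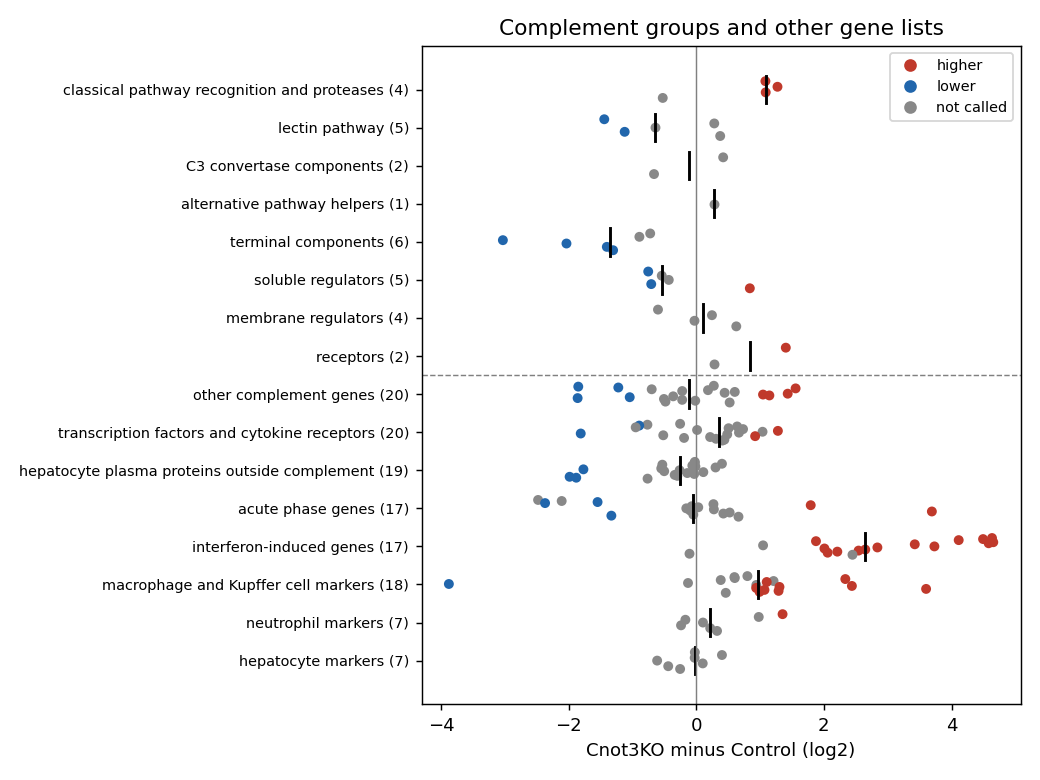
Median difference in log2 intensity, Cnot3KO minus Control, of each list of genes, with a point for every measured gene. The terminal components have a median of -1.35, beside -0.26 for plasma proteins outside complement, -0.05 for acute phase genes and 2.65 for interferon-induced genes.

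Other secreted proteins of the liver are given beside the terminal components, without matching for intensity. Of 19 hepatocyte plasma proteins outside complement, 3 were called lower and 0 higher by limma, with a median of -0.26, and the called genes were Klkb1 at -1.98, Proz at -1.88 and F9 at -1.77. The 17 acute phase genes had a median of -0.05, with Lcn2 (3.69) and Orm2 (1.79) called higher and Saa4 (-2.37), Saa3 and Itih4 called lower. Interferon-induced genes were called higher in 14 of 17 cases, with a median of 2.65 and Oasl1 at 4.65. Of all genes tested, 12.2% were called higher and 4.64% lower. These lists were described and not tested against the complement genes. Klkb1 lost its call without Control replicate 1 (adjusted p = 0.0626). Saa3 lost its call without Control replicate 1 (0.0829), Control replicate 2 (0.0707) or Cnot3KO replicate 1 (0.061), and Orm2 without Control replicate 1 (0.0696), Cnot3KO replicate 1 (0.054) or Cnot3KO replicate 2 (0.0827).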

How the data were processed

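Total liver RNA of 4 mice was hybridised to 1-colour Affymetrix arrays. The authors deposited linear intensity values after RMA (robust multi-array average, which corrects background, normalizes quantiles and summarises probes), and per the labels RMA is the only tool named; its version and whether other arrays were normalized with these are not given in the sources used here. RMA shrinks differences at low intensity, and no counts or depth exist, so precision is limited by 2 arrays per group. Gene symbols came from GEO's platform annotation: 34945 of 45037 probe sets named 1 gene, 932 several and 9160 none, and only the first kind was named.

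Here the deposited intensities were put on the log2 scale with no constant added. Probe sets above the 20th percentile of their array on at least 1 array were kept (38405, or 85.3%). Differences were fitted with limma 3.58.1 (lmFit and eBayes, R 4.3.3), 2-sided, with Benjamini-Hochberg adjustment over all kept probe sets and a threshold of 0.05. Tests had 5.4 degrees of freedom, 3.4 of them from the prior. The p-values use the spread between the 2 mice of each group, pooled over both groups and moderated by a prior from all kept probe sets. Where several kept probe sets named a gene, the brightest on average over the 4 arrays stood for it. Every complement gene was named, with Cnot3, and up to 4 called genes with the largest difference from each other list, plus cell type markers and further genes named beside them. The genes, groups and lists were chosen with earlier results of these data known. Scripts were tested on simulated data. Promoter windows came from RefSeq. Tables and figures were made with Python 3.11.15, numpy 2.4.6, pandas 2.3.3 and matplotlib 3.10.9.

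Alternatives were no filter, a 50th percentile filter, renewed quantile normalization, centring on each array's median or on 99 probe sets of ribosomal proteins, the replicate number as a block, leaving out probe sets ending in _x_at or _s_at, an intensity trend in the prior, the methods' t-test, averaging all probe sets of a gene, a 2-fold minimum, and leaving out each array.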

Additional observations from a re-analysis of the deposited data

How the results depend on the processing

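With 2 arrays per group, calls near the threshold were fragile, and C3ar1, C8a and C8b were the 3 complement genes that kept their call in every setting except the methods' t-test. That t-test with Benjamini-Hochberg adjustment gave 0 complement genes higher, 0 lower, and 0 of all genes in either direction. At an unadjusted p under 0.05 it gave 6 complement genes higher and 10 lower (6 and 14 by limma), and 2365 and 1574 of all genes. Leaving out 1 array at a time gave 1 to 2 complement genes higher, with 2 without Control replicate 2, and 2 to 5 lower, the fewest without Cnot3KO replicate 1 and the most without Control replicate 1. Such a fit leaves 1 array in a group, takes its spread from the other group and the prior, and assumes that the lone array varies alike, so a kept call is weak evidence of stability. Over all genes it gave 746 to 1220 higher and 201 to 505 lower.

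Signs turned only for genes that were not called. With all probe sets of a gene averaged, Masp2 gave -0.26, Cfp -0.043 and Cd59a -0.30. Centred on ribosomal protein genes, Cd46 gave 0.0052. On leaving out single arrays, Cd59a ran from -0.10 to 0.59 and Cd46 from -0.16 to 0.10. The cause was not tested. With no filter, Cr2 (adjusted p = 0.051) and Il6ra (0.0559) lost their calls, and Cnot3 lost its call with the trend (0.0551).

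Vtn lost its call after renewed quantile normalization (-0.61, adjusted p = 0.069) and after ribosomal centring (0.0506). Hc was called with no filter (adjusted p = 0.0492), and Hc and Cfb with the 50th percentile filter (0.0457 and 0.0488), array medians (0.0416 and 0.044), the trend (0.0294 and 0.0406) and the mean of probe sets (0.0352 and 0.0364). A 2-fold minimum left 4 complement genes higher and 6 lower. Whether mice with the same replicate number are related is not given in the sources used here. Same-numbered deviations from the group mean correlated at 0.232 over the kept probe sets of the 2 pairs. With the replicate number as a block, 4 complement genes were higher and 6 lower, and Clu (adjusted p = 0.0698), C4bp (0.055) and Vtn (0.0652) lost their calls, as did Cnot3 (0.0517) and Cebpb (0.059). Over all genes the block gave 1849 higher and 716 lower. A small difference could go unseen in dim probe sets such as those of C5ar1 and Cd46.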
